A study of Mus musculus with 6 samples.

Results

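The microRNA (miRNA) repertoire of fresh myocardium (heart muscle) of the mouse was described from the 3 libraries whose titles give a post-mortem interval of 0 h. They are 3 of the 6 libraries of a study on estimating the time since death, and the other 3, taken at 6 d, are not analysed here. The labels give the tissue and the interval, and no strain, age, sex or treatment. They also do not say whether the 3 libraries came from separate animals, so the spread given here is that between these libraries and may be technical. All 3 were made from 500 ng of total RNA extracted with Trizol, using a NEBNext small RNA kit. Each file lists the same 984 mature miRNAs.

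A miRNA is cut from a hairpin precursor, whose 2 arms can each give a mature strand, named 5p and 3p. One strand is usually kept in an Argonaute protein and the other is degraded. The kept strand pairs with messenger RNAs mainly through its seed, here bases 2 to 8, and lowers their translation or stability, so miRNAs with the same seed share many targets. Heart muscle is known for a small set of miRNAs made mainly in striated muscle (miR-1, miR-133) or from introns of myosin genes (miR-208a, miR-208b, miR-499).

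The sequences below are the 3 largest members, or all of them where there are fewer, of the 8 largest seed families among miRNAs with a RefSeq sequence, followed by heart muscle's miR-499-5p and miR-208a-3p. Mature sequences are from RefSeq on mouse build GRCm38.p6, written 5′ to 3′ with the seed in capitals. RefSeq's table gave a sequence for 851 of the 984 miRNAs, and these held 54.6% of the reads on average (44.0% to 64.4%). miR-1a-3p, miR-143-3p, miR-378a-3p, miR-30d-5p and miR-486a/b-5p are named only.

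miR-148a-3p: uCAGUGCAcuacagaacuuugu
miR-152-3p: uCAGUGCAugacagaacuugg
miR-148b-3p: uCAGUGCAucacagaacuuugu
miR-99a-5p: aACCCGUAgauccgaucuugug
miR-100-5p: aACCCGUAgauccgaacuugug
miR-99b-5p: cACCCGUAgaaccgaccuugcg
let-7i-5p: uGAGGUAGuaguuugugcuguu
let-7f-5p: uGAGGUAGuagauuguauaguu
let-7g-5p: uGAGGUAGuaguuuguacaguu
miR-126a-3p: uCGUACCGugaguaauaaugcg
miR-26a-5p: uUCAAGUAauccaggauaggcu
miR-26b-5p: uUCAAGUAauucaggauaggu
miR-30a-5p: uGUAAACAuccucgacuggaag
miR-30c-5p: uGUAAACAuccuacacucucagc
miR-30e-5p: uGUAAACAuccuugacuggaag
miR-27b-3p: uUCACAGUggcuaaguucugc
miR-27a-3p: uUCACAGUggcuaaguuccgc
miR-451a: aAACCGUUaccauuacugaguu
miR-499-5p: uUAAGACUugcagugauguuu
miR-208a-3p: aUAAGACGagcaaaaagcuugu

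Several of these strands lie within other genes in the GENCODE vM21 annotation of GRCm38. miR-208a-3p (chr14:54949072-54949093, minus strand) lies in an intron of Myh6, the alpha myosin heavy chain of adult mouse heart, and miR-499-5p (chr2:155622893-155622913, plus strand) in an intron of Myh7b. miR-126a-3p (chr2:26591402-26591423, plus strand) overlaps an annotated exon of Egfl7, an endothelial gene. miR-99a-5p (chr16:77598940-77598961, plus strand) lies in an intron of the noncoding host gene Mir99ahg, and let-7g-5p (chr9:106178846-106178867, plus strand) in an intron of Wdr82. miR-148a-3p (chr6:51269829-51269850, minus strand), miR-30a-5p (chr1:23272274-23272295, plus strand) and miR-451a (chr11:78073186-78073207, plus strand) lie in no annotated host gene on their strand. The deposited files carry no coordinates, and the authors' build is not given in the sources used here.

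The libraries held 4468547, 7906557 and 7299596 miRNA reads in replicates 1, 2 and 3. Replicate 1 was deposited as counts and the other 2 as log2 values, from which whole reads were recovered. Values below are shares of these reads, in percent or in RPM (reads scaled to a library total of 1000000), as mean ± SD (n = 3) unless given per library. A floor of 3 reads equals 0.671, 0.379 and 0.411 RPM. Without molecular identifiers, reads are not independent molecules, so this floor reflects counting error alone. A share of reads is not a share of molecules, because how efficiently each miRNA was ligated and amplified was not measured. The shares of a library have a fixed sum, so a higher share of an abundant miRNA lowers those of the others. In a bulk sample, fewer cells of a type and less RNA per cell cannot be told apart. Replicate 3 was the least like the other 2. Over the 127 miRNAs at a mean of 100 RPM or more, the Pearson correlation of log2 RPM was 0.98 between replicates 1 and 2, 0.95 between 1 and 3 and 0.94 between 2 and 3. Of the 127, replicate 3 was highest for 62 and lowest for 40, and replicate 2 was highest for 26 and lowest for 71. A place as highest in replicate 3 was thus common. These correlations and counts are descriptions across miRNAs of libraries that share a preparation method.

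Most reads came from few miRNAs. In each of the 3 libraries, 3 miRNAs held 50% of the reads and 18 to 20 held 90%. The 20 most abundant held 90.5% ± 0.600, between 90.03% and 91.2%. By mean share, 16 miRNAs were at 1% or more, 51 at 1000 RPM or more and 248 at 10 RPM or more. The 127 at 100 RPM or more left 0.539% of the reads to all others. At the other end, 543 of the 984 were under 1 RPM and together held 0.0124%. A read was present in all 3 libraries for 593 miRNAs, in at least 1 library for 914 and in none for 70. Of the 914, 186 had reads in a single library.

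miR-1a-3p, which is made in heart and skeletal muscle, ranked first in every library. It took 27.2%, 37.1% and 22.3% of the reads in replicates 1, 2 and 3, a mean of 28.9% ± 7.52. Replicate 2 was highest and replicate 3 lowest, and the lowest value lay above the highest share of any other miRNA. miR-148a-3p, abundant in liver and secretory tissues but not confined to them, was second with 14.2%, 8.75% and 18.8%. Its order over the libraries was the reverse of that of miR-1a-3p. Because shares have a fixed sum, a relation between these miRNAs cannot be read from that order. miR-99a-5p, a regulator of growth signalling through Mtor, ranked below miR-148a-3p with 9.31%, 7.14% and 12.8%. The ranges of miR-148a-3p and miR-99a-5p overlapped, though miR-148a-3p was higher within each library.

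miR-143-3p, a miRNA of smooth muscle, came next with 7.21%, 5.67% and 6.98%. miR-126a-3p, a miRNA of endothelium, followed with 5.18%, 5.41% and 7.77%. Their ranges overlapped, and replicate 3 had the order reversed. miR-378a-3p, which comes from an intron of the metabolic coactivator gene Ppargc1b, was sixth with 3.56%, 5.80% and 2.08%. Like miR-1a-3p it was highest in replicate 2 and lowest in replicate 3.

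miR-26a-5p held 3.72%, 3.05% and 4.11%. miR-30d-5p held 3.20%, 3.82% and 0.949%, and miR-30a-5p held 1.84%, 2.71% and 0.417%. Both miR-30 strands were thus far lower in replicate 3 than in the other 2 libraries. The other members of the first 20 were let-7i-5p, let-7f-5p, let-7g-5p, miR-451a, miR-30c-5p, miR-486b-5p, miR-486a-5p, miR-27b-3p, let-7c-5p, miR-27a-3p and let-7a-5p, with mean shares from 2.46% for let-7i-5p to 0.476% for let-7a-5p. miR-486a-5p and miR-486b-5p had nearly the same reads in every library and appear to share them, so each one's value is uncertain.

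The order of the first 20 was only partly resolved by 3 libraries. Of the 20 pairs of neighbours from rank 1 to rank 21 (miR-22-3p, 0.3897%), 3 had ranges that did not overlap: miR-1a-3p above miR-148a-3p, let-7g-5p above miR-451a, and miR-27b-3p above let-7c-5p. The other 17 overlapped. In 7 of the 20 pairs the order was the same in all 3 libraries. Of the first 20 by mean, 18 were among the first 20 of every library, and 8 of the first 10 were among the first 10 of every library.

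**Figure D1:**
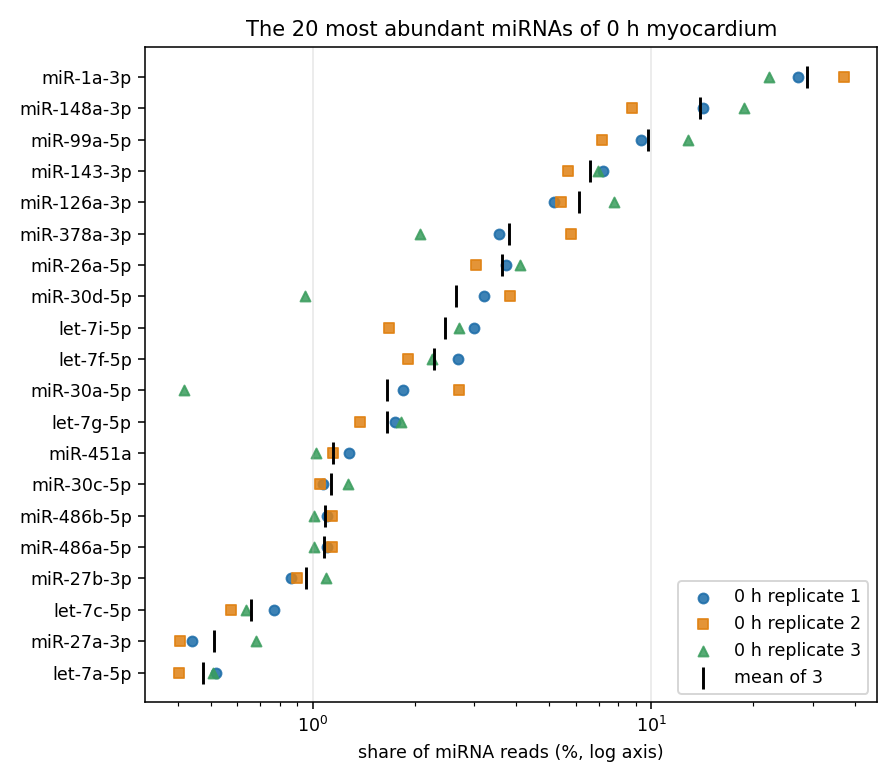
Share of miRNA reads (percent, log axis) of the 20 most abundant miRNAs in each 0 h library, with the mean of 3 as a bar. miR-1a-3p lies between 22.3% and 37.1%, and replicate 3 lies far below the other 2 for miR-30d-5p (0.949%) and miR-30a-5p (0.417%).

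Grouped by seed, the 8 largest families with a sequence held 47.7% ± 9.80 of all reads and 87.1% of the reads that had a sequence. The miR-148/152 family (CAGUGCA) was the largest at 14.1% ± 5.02, of which miR-148a-3p made up 98.6%. miR-152-3p held 0.152% and miR-148b-3p 0.0531%. The miR-99/100 family (ACCCGUA) followed at 10.3% ± 2.98, with 94.8% of it from miR-99a-5p, 2.75% from miR-100-5p and 2.43% from miR-99b-5p. In both families a single gene gave nearly all reads.

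The let-7 family (GAGGUAG), which holds back growth and fetal gene programmes, was spread over more members. Its 9 members in the files summed to 9.12%, 6.26% and 8.31%, a mean of 7.90% ± 1.47. let-7i-5p made up 31.2% of the family, let-7f-5p 29.0% and let-7g-5p 20.9%. let-7c-5p made up 8.34%, let-7a-5p 6.02%, let-7d-5p 2.21% and let-7b-5p 1.78%. let-7e-5p and miR-98-5p were the smallest at 0.391% and 0.212%. Members of let-7 differ by few bases, and how the authors assigned reads that match several of them is not given in the sources used here.

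miR-126a-3p (CGUACCG) and miR-451a (AACCGUU) were the only members of their families in the sequence table, at 6.12% ± 1.43 and 1.15% ± 0.129. The miR-26 family (UCAAGUA) held 3.74% ± 0.540, with 97.0% of it from miR-26a-5p. The miR-27 family (UCACAGU) held 1.46% ± 0.272, of which miR-27b-3p made up 65.2% and miR-27a-3p 34.8%. The miR-30 family (GUAAACA) held 2.88% ± 1.10 over the members with a sequence, and miR-30a-5p made up 57.5%, miR-30c-5p 39.3% and miR-30e-5p 3.25% of that. By name, which adds miR-30d-5p and miR-30b-5p, the miR-30 5p strands came to 6.26%, 7.75% and 2.71%, a mean of 5.57% ± 2.59. The low value was again that of replicate 3.

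The members of this last family did not vary together. miR-30c-5p held 1.08%, 1.05% and 1.27%, and miR-30b-5p 365.0, 309.7 and 361.0 RPM. miR-30e-5p held 1005, 1442 and 362.5 RPM, as miR-30a-5p and miR-30d-5p did with replicate 3 lowest. miR-30b-5p and miR-30c-5p were not low there.

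Strands cut from 1 transcript also differed in level. miR-99a and let-7c-1 lie within 10 kb of each other on chromosome 16, and miR-99a-5p exceeded let-7c-5p 12.1-fold, 12.4-fold and 20.3-fold. Since let-7c-5p has a further locus, the ratio is not that of this transcript alone. miR-451a and miR-144 lie together on chromosome 11, and miR-451a, which skips Dicer in its processing, exceeded miR-144-3p 313-fold, 493-fold and 394-fold. miR-143-3p exceeded miR-145a-5p, its partner in smooth muscle, 79.7-fold, 138-fold and 89.1-fold. In all 3 of these pairs the same partner was higher in every library.

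Lists of miRNAs known from 13 cell and organ types were then summed. In all, 85 miRNAs were in a list and held 47.0% ± 5.64 of the reads, and the 899 in no list held 52.96%. Muscle, vessel wall and blood miRNAs made up nearly all of the listed reads. A list's share is that of its members' reads, and other cells can make the same miRNAs.

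The 13 miRNAs of cardiac and skeletal muscle summed to 27.5%, 37.4% and 22.8%, a mean of 29.2% ± 7.45, and miR-1a-3p alone was 98.8% of that. miR-499-5p, a miRNA of heart and slow muscle, was next with 1647, 2044 and 3588 RPM (rank 34). It was highest in replicate 3, where miR-1a-3p was lowest. miR-208a-3p, the strand most restricted to heart, held 167, 124 and 232 RPM (rank 102), and miR-208b-3p, from the slow myosin gene Myh7, held 15.4, 22.0 and 43.0 RPM. The tissue label was therefore matched by the presence of all 3 myosin-intron miRNAs in each library. miR-208a-3p exceeded miR-208b-3p 10.8-fold, 5.61-fold and 5.39-fold.

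miR-133a-3p, which is transcribed together with miR-1a, held 619, 695 and 822 RPM (rank 57). miR-1a-3p exceeded it 440-fold, 534-fold and 272-fold. miR-133a-5p held 166, 263 and 165 RPM, and miR-133b-3p 67.6, 55.7 and 82.3 RPM. miR-206-3p, which is made in skeletal rather than heart muscle, held 14.1, 9.74 and 7.40 RPM and so stood below the heart strand miR-208a-3p in each library. Of the 13 muscle miRNAs, 12 had a read in all 3 libraries.

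Vessel miRNAs followed. The smooth muscle and pericyte list held 6.78% ± 0.868, of which miR-143-3p was 97.6%. miR-145a-3p held 1039, 725 and 822 RPM and miR-145a-5p 904, 412 and 783 RPM. The endothelial list held 5.23%, 5.48% and 7.87%, a mean of 6.19% ± 1.45, and miR-126a-3p was 98.8% of it. Its partner strand miR-126a-5p held 567, 628 and 965 RPM, highest in replicate 3 as the 3p strand was. miR-126b-5p had no read.

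The red blood cell list held 3.51%, 3.45% and 3.06%, a mean of 3.34% ± 0.244. As a share of all reads it had the narrowest range of the 13 lists (highest over lowest 1.15-fold). Which list is narrowest depends on the total, since miR-1a-3p is a large and varying part of it. miR-451a made up 34.4% of it, and the 2 rows of miR-486 made up 32.5% and 32.4%. The sum of this list was thus at a like share in all 3 libraries, but its members were not all as even. miR-451a held 12814, 11478 and 10242 RPM and miR-144-5p 135, 114 and 73.3 RPM. In contrast, miR-486b-5p differed 1.13-fold between its highest and lowest library. The fibroblast list held 0.706%, 0.503% and 0.815%. Most of that came from miR-199a-3p and miR-199b-3p, which have the same sequence in RefSeq and nearly the same reads, so that their 44.8% of the list each is uncertain.

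The leukocyte list held 0.504%, 0.364% and 0.146%, a mean of 0.338% ± 0.180. Its highest and lowest library differed 3.44-fold, and replicate 3 was lowest. miR-146a-5p, which is induced by inflammatory signalling, was 77.6% of it, with 3989, 2927 and 955 RPM. miR-146b-5p held 467, 226 and 77.3 RPM, and miR-142a-5p, made in blood cells, held 229, 213 and 68.8 RPM, so these were lowest in replicate 3 too. The other strand of that hairpin, miR-142a-3p, held 184, 95.2 and 131 RPM. miR-150-5p of lymphocytes held 106, 111 and 159 RPM, and miR-223-3p of myeloid cells 13.4, 5.06 and 10.4 RPM. These 3 were not lowest in replicate 3, so the list's low sum there came from part of its members.

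miRNAs of other organs were present at low shares. miR-122-5p, the main miRNA of hepatocytes, held 645, 508 and 1247 RPM (rank 54), and miR-122-3p had no read. It exceeded heart-restricted miR-208a-3p 3.85-fold, 4.11-fold and 5.38-fold. Liver, gut and kidney miRNAs held 0.0951% ± 0.0328, led by miR-192-5p at 557, 570 and 957 RPM and miR-194-5p at 139, 161 and 303 RPM. miR-122-5p, miR-192-5p and miR-194-5p were all highest in replicate 3, as 62 of the 127 miRNAs at 100 RPM or more were. The source of these reads was not tested.

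The list of neurons and glia held 0.253% ± 0.113, of which miR-128-3p, found in many tissues besides brain, was 84.0%. miR-9-5p, a strand of neural cells, held 158, 327 and 640 RPM, and miR-124-3p, the defining strand of neurons, had 0, 3 and 10 reads. Epithelial miRNAs held 0.0260% ± 0.0140, led by miR-203-3p of skin at 294, 154 and 69.3 RPM and miR-200c-3p at 51.7, 56.7 and 31.1 RPM. The cluster of miR-183, miR-96 and miR-182 held 145, 21.2 and 27.3 RPM, and replicate 1 was far above the other 2, with miR-182-5p at 116, 11.9 and 16.9 RPM. Ciliated-cell miRNAs held 35.6 ± 10.4 RPM, led by miR-34c-5p at 26.2 RPM. Pancreas miRNAs held 3.38 ± 0.991 RPM, led by miR-375-3p at 2.10 RPM, and miR-216a-5p had no read.

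**Figure D2:**
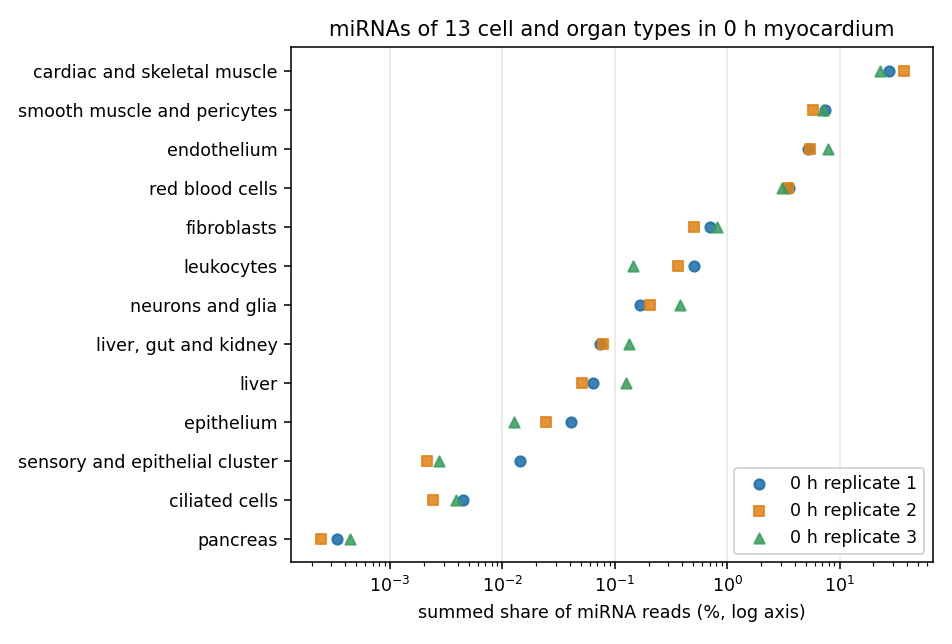
Summed share of miRNA reads (percent, log axis) of miRNAs known from 13 cell and organ types, 1 point per 0 h library. Muscle leads with 22.8% to 37.4%, red blood cell miRNAs vary least (3.06% to 3.51%), and replicate 3 is lowest for leukocytes (0.146%) and highest for liver (0.125%).

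Reads were unevenly spread over features of sequence that the choice of libraries did not use. These read shares are weighted toward the most abundant miRNAs with a sequence. Those are miR-148a-3p, which begins with U, and miR-99a-5p, which begins with A. Among the 505 miRNAs with a sequence and a read in all 3 libraries, 42.0% began with U, and these held 72.6% ± 0.873 of the reads of the 505. Those beginning with A were 26.3% of miRNAs and held 23.8% of the reads. C began 22.0% and G 9.70%, and they held 3.24% and 0.313%. A length of 22 bases was found in 55.2% of the 505, and these held 89.1% ± 1.55 of the reads. These shares leave out miRNAs without a sequence, miR-1a-3p among them.

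For each precursor, the reads of its 2 arms were set against each other within each library, so depth and scaling cancel. The files listed both arms for 289 precursor names. Of these, 195 had at least 10 reads over both arms in every library and were tested, and they held 88.3% of the reads. With 1 read added to each arm, limma tested the log2 of 5p over 3p against 0. It called 169 of the 195 (86.7%) unequal at a Benjamini-Hochberg adjusted p under 0.05. Of the 195, 91 (46.7%) were called toward 5p and 78 (40.0%) toward 3p, and 26 precursors did not pass. In all 169 the higher arm was the same in all 3 libraries. At 100 RPM or more, 95 of 102 precursors were called, 60 toward 5p and 35 toward 3p.

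The higher arm took most of a precursor's reads. Its median share over the 195 was 96.8%, and it was 99% or more in 66, 90% or more in 127 and under 75% in 33. Although more precursors were called toward 5p, 5p strands held 29.3%, 25.8% and 25.1% of the paired reads, because miR-1a, miR-148a, miR-143 and miR-126a all kept the 3p strand. For 146 precursors both strands had a sequence. The higher arm began with U in 72 of them (49.3%) and the lower arm in 36 (24.7%). In 57 the higher arm alone began with U, and in 21 the lower arm alone.

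**Figure D3:**
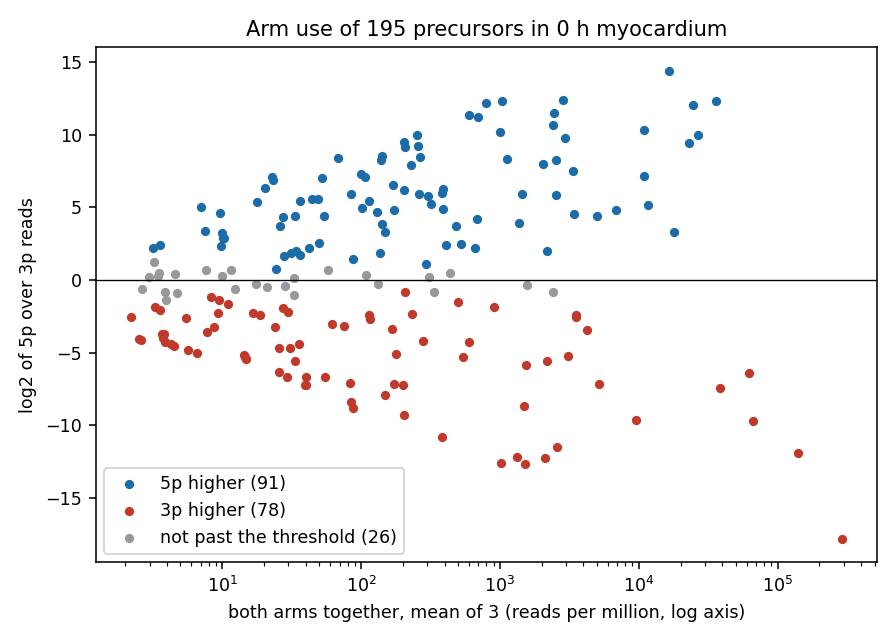
Fitted log2 of 5p over 3p (1 read added to each arm) against the level of both arms together (mean RPM of the 3 libraries, log axis) for 195 precursors, coloured by the limma call at an adjusted p under 0.05. Of the 195 precursors, 91 lie above 0 and 78 below it as called, and ratios past 10 in either direction lie right of 100 RPM.

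Among precursors at 100 RPM or more, the largest ratios toward 5p were those of let-7g, miR-100, miR-149, miR-26a, miR-122 and let-7i. let-7g had 78411, 108898 and 133468 reads on 5p and 3, 3 and 6 on 3p (log2 ratio 14.40 ± 0.18 SE, limma adjusted p = 3.1e-07). Its 3p reads were near the floor of 3, so the size of this ratio depends on the method. It was 14.57 with 0.5 reads added to each arm and 14.68 by edgeR, an alternative test. miR-26a had 166118, 240998 and 299703 on 5p and 30, 42 and 70 on 3p (log2 ratio 12.29 ± 0.15 SE). miR-122 had no 3p read and miR-149 had 0, 1 and 0, so their fitted ratios rest on the added read and are not given.

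Toward 3p, the largest ratios were those of miR-1a, miR-101a, miR-103, miR-128, miR-29a and miR-148a. miR-1a had 6, 4 and 12 reads on 5p and 1216875, 2932487 and 1629726 on 3p (log2 ratio -17.84 ± 0.44 SE, limma adjusted p = 2.6e-06). miR-148a had 169, 175 and 329 reads on 5p and 634363, 692130 and 1373282 on 3p (log2 ratio -11.94 ± 0.10 SE, limma adjusted p = 1.4e-07). miR-103 had no 5p read in the 3 libraries, and miR-101a had 2, 0 and 0. The arm ratio of miR-148a stayed within 0.16 on the log2 scale over the 3 libraries, while its share of the reads ranged from 8.75% to 18.8%.

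At 100 RPM or more, the 6 precursors with ratios nearest 1 were miR-142a, miR-676, miR-145a, miR-214, miR-335 and miR-28a. miR-676 had 282, 354 and 516 reads on 5p and 345, 406 and 649 on 3p, and so used both arms at a like level in every library. miR-145a gave 46.5%, 36.2% and 48.8% of its reads from 5p. miR-28a gave 32.5%, 33.3% and 42.9% from 5p and was called toward 3p (log2 ratio -0.82 ± 0.28 SE, limma adjusted p = 0.038). The ratio was -0.70 without replicate 1, -0.73 without replicate 2 and -0.82 without the filter on low precursors, and the call was lost in each case.

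The other 3 of these 6 were near 1 only on average, because their libraries lay on both sides. miR-335, from an intron of the imprinted gene Mest, had 1873, 3126 and 345 reads on 5p and 658, 763 and 1465 on 3p. Its 5p strand held 74.0% and 80.4% of the reads in replicates 1 and 2 and 19.1% in replicate 3. The mean log2 ratio was 0.49 ± 0.87 SE (limma adjusted p = 0.61), and without replicate 3 it was 1.77 and called toward 5p.

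miR-142a had 1024, 1684 and 502 reads on 5p and 820, 753 and 958 on 3p, so that 5p held 55.5%, 69.1% and 34.4%. miR-214 went the other way, with 5p at 55.0%, 37.8% and 74.5%. Precursors chosen after their values were seen showed the same departure of replicate 3. miR-30a had 82409, 214208 and 30445 reads on 5p and 5019, 9202 and 12224 on 3p, so 5p held 94.3%, 95.9% and 71.4% (limma adjusted p = 0.0055 toward 5p, with the call lost at a log2 ratio of 2.68 without replicate 2). miR-340 had 5p at 86.8%, 88.8% and 66.4%, and miR-30e at 43.4%, 52.8% and 16.9%. In contrast, miR-126a had log2 ratios of -6.51, -6.43 and -6.33.

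**Figure D4:**
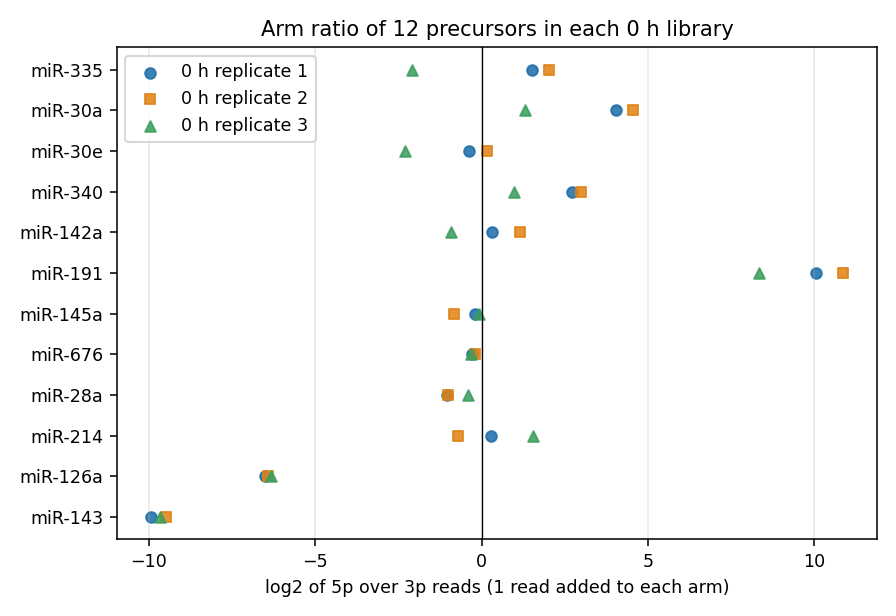
log2 of 5p over 3p (1 read added to each arm) of 12 precursors in each 0 h library. Replicate 3 lies to the left of the other 2 for miR-335, miR-30a, miR-30e, miR-340, miR-142a and miR-191. It lies to the right for miR-214, miR-28a and miR-145a, and the 3 libraries nearly coincide for miR-126a and miR-676.

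The spread among the 3 libraries was similar over a wide range of levels. For the 127 miRNAs at 100 RPM or more, the median coefficient of variation (CV) was 25.4%. It was 29.5% without replicate 1, 18.9% without replicate 2 and 16.5% without replicate 3. With libraries scaled by the median ratio of their miRNAs instead of by their totals, it was 19.5%, so its size depends on the scaling. The median CV was 28.1% at 10 to 100 RPM, 27.9% at 100 to 1000, 23.1% at 1000 to 10000 and 20.2% at 10000 and above. Of the 127, 33 differed at least 2-fold between the highest and the lowest library and 9 at least 4-fold. The median difference between 2 libraries, as an absolute log2 value, was 0.32 for replicates 1 and 2, 0.39 for 1 and 3 and 0.61 for 2 and 3.

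The largest ratios of highest to lowest library were those of miR-335-5p (8.87-fold), miR-185-5p (6.92-fold), miR-30a-5p (6.50-fold), miR-146b-5p (6.05-fold), miR-203-3p (4.25-fold), miR-146a-5p (4.18-fold), miR-9-5p (4.06-fold) and miR-218-5p (4.05-fold). miR-335-5p, encoded with Mest, held 419, 395 and 47.3 RPM. miR-185-5p held 3893, 5365 and 775 RPM. Replicate 3 was lowest for the first 6 of these 8. It was highest for miR-9-5p, and replicate 2 was lowest for miR-218-5p (895, 221 and 666 RPM).

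The steadiest of the 127 were miR-125a-5p, miR-25-3p, miR-195a-5p and miR-486b-5p. miR-125a-5p, a homologue of the worm miRNA lin-4, held 2072, 2031 and 2011 RPM, a CV of 1.52%. miR-25-3p, from a cluster within Mcm7, held 2526, 2675 and 2544 RPM. miR-195a-5p of the miR-15/16 seed group held 203, 207 and 185 RPM. miR-16-5p, which has the same seed, held 780, 916 and 268 RPM and was lowest in replicate 3.

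The departure of replicate 3 went with the base composition of the miRNAs. This was looked at after the values were seen and is given as a description, and 7 features were tried: each of the 4 bases, purines (A and G), G and C together, and length. Over the 104 miRNAs at 100 RPM or more with a sequence, the share of purines and the log2 ratio of replicate 3 to the mean of the other 2 had a Pearson correlation of -0.46 and a Spearman correlation of -0.49. For replicate 1 over replicate 2 the same correlations were -0.06 and -0.03. Within the purines, A content alone had -0.51 and -0.39 with the departure of replicate 3, and G content -0.05 and -0.16. A thus went with it more than G did, though by Spearman purines together had the larger value. The Pearson and Spearman correlations were 0.30 and 0.22 for U and 0.23 and 0.35 for C. They were 0.22 and 0.18 for G and C together and 0.03 and -0.06 for length. The points share their libraries and their depth. In 4 equal groups of rising purine content, the median log2 ratio was 0.43, 0.38, 0.02 and -0.19, and 0, 1, 5 and 7 of the 26 miRNAs in each were at least 2-fold lower in replicate 3.

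The arms of 1 precursor come from the same transcript, so they give this comparison within a locus. For 43 precursors at 100 RPM or more with both sequences and at least 10 reads on each arm in every library, the purine difference between 5p and 3p and the shift of the log2 arm ratio in replicate 3 had a Pearson correlation of -0.63 and a Spearman correlation of -0.67. The same for replicate 1 minus replicate 2 was -0.11 and -0.08. Without the limit on level, over 68 precursors, the correlations were -0.56 and -0.54 for replicate 3 and -0.24 and -0.23 for replicate 1 minus 2. Over the 43, the difference in A content had Pearson correlations of -0.69 with the shift in replicate 3 and -0.40 with that of replicate 1 minus 2, that in U content 0.70 and 0.42, and that in G content -0.09 and 0.31. The relation to A and U was thus also present, at a smaller size, between replicates 1 and 2. Of the 30 whose 5p strand was richer in purines, 24 had a lower 5p to 3p ratio in replicate 3, with a median shift of -0.39. Of the 12 whose 3p strand was richer, 11 had a higher ratio, with a median of 0.39. The size of the shift did not follow the purine difference closely. let-7d and let-7e, with 36.4 points more purine on 5p, shifted by -0.30 and -0.35. miR-1981 at 29.2 points shifted by 0.60, and miR-30a at 13.6 points by -2.97. The pairs below, with the seed in capitals, are from 3 precursors described above that had large shifts, miR-335 (-3.85), miR-340 (-1.87) and miR-142a (-1.67). They are not the 3 largest shifts. miR-30a, miR-30e (-2.19) and miR-191 (-2.10) shifted more than miR-340 and miR-142a did. The purine difference was 13.6 points for miR-30a and miR-30e and 29.05 points for miR-191. The 5p strands of miR-335, miR-340 and miR-142a were 69.6%, 59.1% and 61.9% purine, and their 3p strands 22.7%, 31.8% and 39.1%.

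miR-335-5p: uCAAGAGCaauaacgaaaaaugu
miR-335-3p: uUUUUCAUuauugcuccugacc
miR-340-5p: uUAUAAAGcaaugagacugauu
miR-340-3p: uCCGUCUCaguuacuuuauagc
miR-142a-5p: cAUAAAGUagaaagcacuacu
miR-142a-3p: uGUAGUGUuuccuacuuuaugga

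miR-214 had the opposite composition, with 31.8% purine on 5p and 68.2% on 3p, and its ratio was higher in replicate 3 by 1.76 on the log2 scale. Of strands described above as low in replicate 3, miR-30a-5p and miR-146a-5p were each 54.5% purine. The part that composition, library preparation or the tissue piece had in these values was not tested.

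**Figure D5:**
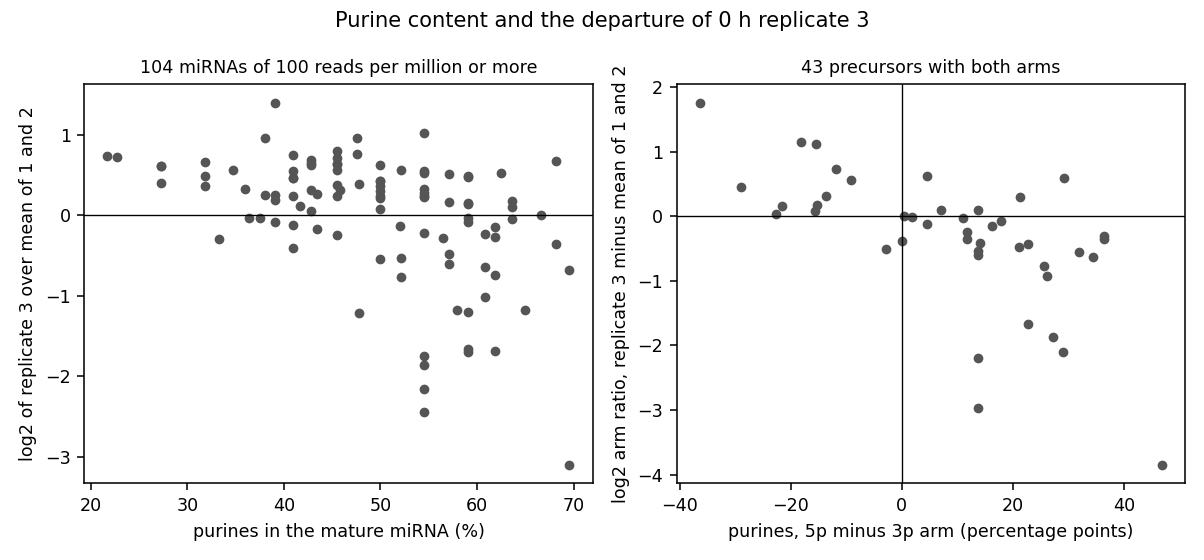
Left, log2 ratio of 0 h replicate 3 to the mean of replicates 1 and 2 against the purine content (percent) of 104 miRNAs. Right, shift of the log2 arm ratio in replicate 3 against the purine difference of the arms (percentage points) for 43 precursors. Points run from upper left to lower right in both, with Spearman correlations of -0.49 and -0.67.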

How the data were processed

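Small RNA reads per mature miRNA were taken from the 3 libraries of 0 h. STAR 2.5.3a, cutadapt 2.8, Trimmomatic 0.39 and FastQC appear in the submitters' processing notes, which state no roles. Which counter, miRNA annotation and build were used is not given in the sources used here. The file of replicate 1 was deposited as counts. Those of replicates 2 and 3 were deposited as log2 values with 3 decimals. Undoing log2(x + 1) gave whole multiples of 1 step per library (0.166 and 0.154), within 0.0005 on the log2 scale, for 631 of 631 and 634 of 634 values that could be tested, up to 705 and 693 reads. Larger reads are rounded by the decimals. The design had assumed the same unit in all files, and the mixture was met by recovering reads.

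Shares are over all 984 rows. Reads per library ranged from 4468547 to 7906557, and each pair of replicates differed beyond sampling noise (chi-square per degree of freedom 362 or more). Nearly identical rows that appear to share reads are miR-199a-3p and miR-199b-3p, miR-486a-5p and miR-486b-5p, miR-374b-5p with miR-374c-5p, and let-7c-2-3p with let-7a-1-3p. Arms were paired by name and tested with limma 3.58.1 (R 4.3.3, intercept, trend on precursor level, robust) on log2((5p + 1)/(3p + 1)), for precursors with at least 10 reads in every library. edgeR 4.0.16 was an alternative. The other computations used Python 3.11.15 and pandas 2.3.3. The steps were tested on simulated data.

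Named miRNAs were the 20 most abundant, the 3 most abundant members of each list and its markers without a read, the 8 largest seed families among miRNAs with a sequence and their 3 leading members, and, at 100 RPM or more, the 6 largest arm ratios each way, the 6 nearest 1, and the 8 largest and 4 smallest ranges. Others were named after their values were seen. The members and lists were chosen with earlier results of these data known.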

Additional observations from a re-analysis of the deposited data

How the results depend on the processing

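Each result was recomputed under the alternatives that apply to it. Most shares moved by less than the SD between libraries, and most arm calls kept their side of the threshold. Counts and the median CV were judged instead by whether they stayed within a set fold of the reported value. With miR-1a-3p left out of the total, 27 miRNAs held 90% of the reads, against 19. A minimum of 10 reads in every library left 352 miRNAs and a read in any library 914, against 593. With miR-1a-3p left out of the total, the list of smooth muscle and pericytes held 9.53%, endothelium 8.67%, red blood cells 4.75%, fibroblasts 0.940%, striated muscle 0.507%, liver, gut and kidney 0.132%, ciliated cells 0.00496% and pancreas 0.000469%. The miR-30 seed family held 5.57% by name. Requiring 10 reads on each arm left 80 calls of unequal arms, since it tests 96 precursors. edgeR called 171 (92 toward 5p, 79 toward 3p), including all 169 of limma. The number called ranged from 160 to 172 when 1 library was left out. The median CV ranged from 16.5% (without replicate 3) to 29.5% (without replicate 1), with 18.9% without replicate 2. It was 19.5% when libraries were scaled by the median ratio of their miRNAs.

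Leaving out 1 library turned the sign of the log2 arm ratio in 6 of the 195 precursors tested, none of them called with all 3 libraries. Of the 3 at 100 RPM or more, miR-142a ranged from -0.31 (without replicate 2) to 0.74, miR-214 from -0.21 (without replicate 3) to 0.91, and miR-335 from -0.29 (without replicate 2; -0.02 without replicate 1) to 1.77 (called toward 5p without replicate 3). The others were miR-369, miR-380 and miR-3061. The cause was not tested. With 3 libraries, arm ratios of precursors at few reads and ranks of neighbours are not resolved. Nor are arm ratios whose sign differs between libraries, also at many reads, as for miR-335 (435 RPM) and miR-30e (2397 RPM). No paired analysis was possible because a single group is described, so its replicate numbers pair nothing.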

Other observations

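Clustered miRNA genes outside the cell-type lists ranged widely in share. The largest such cluster, miR-99a with let-7c on chromosome 16, held 10.4% ± 2.90 (SD, n = 3). That value includes all let-7c-5p reads, which can also come from a further locus. The clusters below held small shares. The miR-25, miR-93 and miR-106b cluster within Mcm7 held 0.293% ± 0.0119 of the reads (SD, n = 3), and the pair of let-7e and miR-125a on chromosome 17 held 0.236% ± 0.0109. The miR-191 and miR-425 pair on chromosome 9 held 0.298% ± 0.106, a wider spread at a like level. Within the chromosome 17 pair, let-7e-5p (395, 231 and 302 RPM) had a wider range than miR-125a-5p. miR-21a-5p, which is raised in injured heart, held 2967, 1829 and 2526 RPM (rank 33), and miR-22-3p, abundant in heart muscle, 3507, 3369 and 4814 RPM (rank 21).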
